A study of Mus musculus with 24 samples.

Results

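The genes described here are the metalloproteases of the ADAM, ADAMTS and MMP families and their tissue inhibitors, the TIMPs, in whole mouse kidney after a dose of parathyroid hormone or of a kinase inhibitor. Members were chosen by name, as a symbol made of Adam, Adamts or Mmp and a number, or Timp1 to Timp4. The table of 19426 genes held 64 such symbols (23 Adam, 18 Adamts, 19 Mmp and 4 Timp), and the 41 whose mean reached 0.2 FPKM over all libraries are reported. FPKM counts sequenced fragments relative to the length of the transcript and the size of the library. The mice were C57BL6, aged 13 weeks, with no genotype given beyond the strain, and had 1 injection of vehicle, of hPTH(1-34) (PTH, a fragment of human parathyroid hormone that activates its receptor) or of YKL-05-099, a small molecule that inhibits salt-inducible kinases (SIKs) among other kinases. By the study's methods, PTH acted for 1 hour and YKL-05-099 for 3 hours before kidneys were taken, so agent and time cannot be told apart. Each group held 8 libraries, 24 in all.

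ADAMTS proteins and most MMPs are secreted zinc proteases that cut the extracellular matrix. ADAMTS enzymes are best known for cutting proteoglycans such as versican and aggrecan, and MMPs for cutting collagens, laminins and other matrix proteins. ADAMs sit in the cell membrane and release the outer parts of other membrane proteins, and TIMPs bind and block all of these enzymes to different degrees. PTH acts on kidney tubule cells through cAMP, a signal that is known to inhibit SIKs.

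Depth, estimated from the step between low values, was about 5840000 to 7240000 fragments in each library, with a median of 6640000. Correlations between libraries on the log2 scale ran from 0.966 to 0.983, and no pair was identical. The sex label, male, goes against the data: Xist, which is transcribed from an inactive X chromosome, measured 76.3 to 114 FPKM across all 24 libraries, and the Y-linked Ddx3y and Uty were at or under 0.1 and 0.06 FPKM. The number of animals stated for each treatment is 6, fewer than the 8 libraries, so it is open whether libraries are separate animals, and the spread behind the p-values may be in part technical. Markers of kidney cells were abundant: the mean of Slc34a1 (proximal tubule) was 1340 FPKM, that of Umod (thick ascending limb) 1090 FPKM and that of Aqp2 (principal cell) 84.6 FPKM.

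Timp3, an inhibitor that binds to the matrix and blocks ADAMTS enzymes and ADAM17 as well as MMPs, was by far the most abundant of these transcripts. It averaged 493 ± 21.8 FPKM (SD, n = 8) in vehicle kidneys and made up 66.8% to 78.4% of the summed FPKM of the 64 genes in a library. Among the proteases, the membrane-bound ADAMs led: Adam9 averaged 29.5 ± 1.75 FPKM in vehicle, Adam15 20.1 ± 2.38, Adam10 19.4 ± 1.44 and Adam17 9.77 ± 0.75. The most abundant secreted protease was Adamts1 at 7.44 ± 0.695 FPKM, followed by Adamts10 at 4.66 ± 0.39, and the most abundant MMP was Mmp24 at 3.92 ± 0.33. FPKM is scaled by length, so these levels may be set side by side. At the other end, 23 of the 64 genes stayed under the minimum, among them Mmp9 (gelatinase B) at a mean of 0.0596 FPKM. The nearest to the threshold were Mmp3 at 0.199, Adamts12 at 0.172 and Timp4 at 0.137 FPKM below it, and Adamts4 at 0.206, Adam4 at 0.207 and Adam33 at 0.211 FPKM above it.

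**Figure D1:**
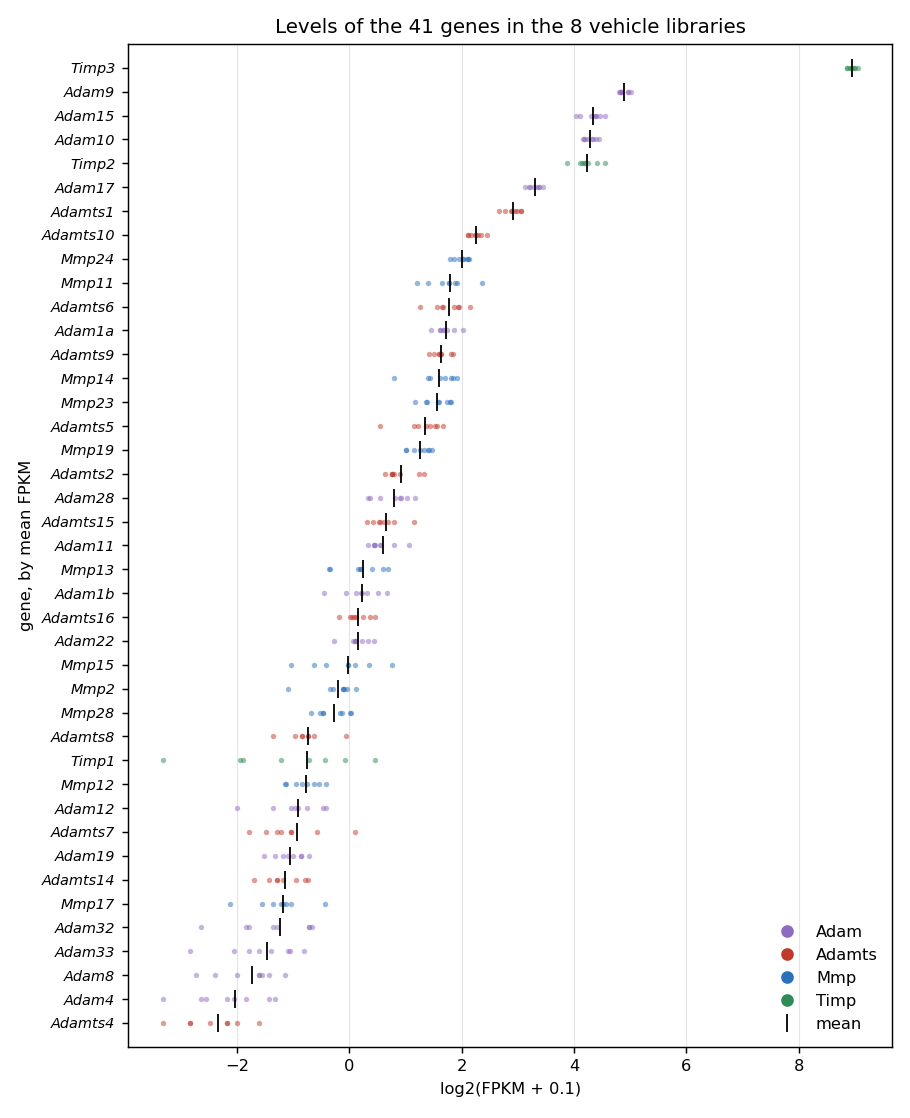
Levels of the 41 reported genes in the 8 vehicle libraries, as log2(FPKM + 0.1) on the horizontal axis, 1 row per gene ordered by mean. Points are libraries, coloured by family, and black ticks are the log2 of the mean; Timp3 stands alone at the top with a mean of 493 FPKM, Adam9, Adam15, Adam10 and Timp2 follow, and Adamts4 is last with a mean of 0.0975 FPKM.

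Differences were tested on log2(FPKM + 0.1) with limma, in 1 fit over the 3 groups, and p-values were adjusted by Benjamini-Hochberg over the 15295 genes that reached the minimum. After PTH, 3 of the 41 genes rose at an adjusted p below 0.05 (Adamts1, Adamts4 and Adamts8) and 4 fell (Adamts6, Mmp11, Mmp19 and Adam11). Adamts4 reached the minimum only through the PTH group, so its call, though counted here, is no support. Of all genes tested, 5.49% rose and 10.2% fell. After YKL-05-099, 1 rose (Adamts1) and 5 fell (Adamts5, Adamts6, Mmp11, Mmp13 and Mmp19), against 5.66% and 10.5% of all genes. Between the agents, 0 of the 41 were higher and 2 were lower with YKL-05-099 than with PTH (Adamts1 and Mmp13), against 2.5% and 3.28% of all genes. In all, 17.1%, 14.6% and 4.88% of the 41 were called, shares near those of all genes, so the count itself is no result about these families. At an unadjusted p below 0.05 there were 9, 9 and 8 genes, which is 22%, 22% and 19.5% of the 41. Of all genes, 28.3%, 30% and 19.8% passed that level. Those of the 41 in the last comparison included 2 that were higher with YKL-05-099 than with PTH (Adamts6 and Mmp11). The median log2 difference of the 41 was -0.02 after PTH and -0.15 after YKL-05-099, where that of all genes was -0.05 in both. The split of calls depended on scaling: over all genes it was 840 higher and 1565 lower after PTH and 865 and 1606 after YKL-05-099, but 1112 and 1117, and 1147 and 1170, when libraries were scaled by median ratios. Both comparisons with vehicle share the vehicle libraries, so a gene that moved alike in both was measured against the same 8 libraries.

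A stricter look asks whether the 8 libraries of a group lay wholly above or below those of another. After PTH this held for Adamts1, above vehicle, and Mmp11, below it, where 2.63% of all genes separated in either direction. After YKL-05-099 it held for Adamts1, above, and Mmp13, below, where 4.35% of all genes did so. Between the agents it held for Adamts1 alone of the 41, against 0.843% of all genes.

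Adamts1 had the largest increase of the 41 after either agent. It encodes a secreted protease that cuts versican and aggrecan, and lies on chromosome 16 (GRCm38, chr16:85793827-85803113, minus strand). Vehicle libraries ran from 6.24 to 8.27 FPKM (median 7.49), PTH libraries from 21.77 to 38.07 (median 23.7) and YKL-05-099 libraries from 9.99 to 16.78 (median 14.1). The 3 groups formed 3 separate bands with no overlap between any pair, vehicle lowest and PTH highest. About 207 to 283 fragments stood behind a vehicle value and 683 to 1346 behind a PTH value. The log2 difference from vehicle was 1.79 ± 0.11 (SE; 3.45-fold; adjusted p = 2.8e-11, limma) after PTH and 0.87 ± 0.11 (1.83-fold; adjusted p = 2.4e-05) after YKL-05-099. YKL-05-099 libraries were lower than PTH libraries by a log2 difference of -0.92 ± 0.11 (adjusted p = 1.3e-05, 95% interval -1.15 to -0.68). All 3 differences kept their call under each of the 35 other settings tried, with ranges of 1.67 to 1.86, 0.80 to 0.93 and -0.99 to -0.84.

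The start region of Adamts1 is shown because cAMP signalling is known to act through a DNA element with the letters TGACGTCA (the cAMP response element, CRE), and because this gene had the largest increase. RefSeq promoters, from 250 bases before to 50 after a start, were matched for 23 of the 41 genes (27 promoters, GRCm38.p6). The full CRE, searched on both strands, was in 0 of the 27, and in 1.79% of all 32851 promoters of that table. The shorter element TGACG, which is contained in the full one, was in 4 (Adam10, Adamts1, Adamts9 and Timp1), which is 14.8% of the 27 against 20.8% of all promoters. Of these 4 genes only Adamts1 passed the test in any comparison. Among the genes called in some comparison, Adamts4, Adamts5, Adamts6, Adamts8, Mmp19 and Adam11 had no matched promoter and were not searched. In the sequence, which runs 5′ to 3′ on the minus strand (chr16:85803064-85803363), capitals mark the shorter element, whose first base lies 170 bases before the start.
Adamts1 promoter: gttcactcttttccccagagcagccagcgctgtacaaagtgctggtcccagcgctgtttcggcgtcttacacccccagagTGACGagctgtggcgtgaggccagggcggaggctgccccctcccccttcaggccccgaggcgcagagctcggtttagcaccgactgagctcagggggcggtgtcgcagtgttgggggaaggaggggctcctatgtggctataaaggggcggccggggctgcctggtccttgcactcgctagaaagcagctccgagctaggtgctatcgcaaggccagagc

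Adamts4 and Adamts8 also rose after PTH, both encoding secreted enzymes that cut aggrecan. Adamts4 was barely detected in vehicle, at 0 to 0.23 FPKM (median 0.1), against 0.15 to 0.67 (median 0.305) after PTH and 0.04 to 0.3 (median 0.12) after YKL-05-099. All 8 PTH libraries were above the vehicle mean, though the ranges overlapped. On the log2 scale it differed from vehicle by 1.28 ± 0.30 after PTH (adjusted p = 0.0039) and 0.31 ± 0.30 after YKL-05-099 (adjusted p = 0.527). It passed the minimum only through the PTH group, since the vehicle mean was 0.0975 and the YKL-05-099 mean 0.141 FPKM, and about 0 to 7 fragments stood behind a vehicle value and 5 to 20 behind a PTH value. It could be among the reported genes only by being higher there, so its test is no independent support for the difference. The size of the difference hangs on the constant added before the logarithm, from 0.32 with 1 FPKM to 2.17 with 0.01 FPKM.

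Adamts8 ran from 0.29 to 0.86 FPKM (median 0.48) in vehicle, from 0.38 to 1.39 (median 0.905) after PTH and from 0.45 to 0.86 (median 0.71) after YKL-05-099. The ranges overlapped, with 7 of 8 libraries of either agent above the vehicle mean. It differed from vehicle by 0.71 ± 0.21 after PTH on the log2 scale (adjusted p = 0.0206) and 0.44 ± 0.21 after YKL-05-099 (adjusted p = 0.159). About 7 to 21 fragments stood behind a vehicle value, 10 to 35 behind a PTH value and 11 to 21 behind a YKL-05-099 value. In 4 libraries (PTH replicates 1 and 5, YKL-05-099 replicate 2 and vehicle replicate 7) the mean of 6 urothelium markers was highest, and when these were left out the PTH difference was 0.68 with an adjusted p of 0.0595. In bulk tissue, a change in the number of cells of a type and a change in RNA per cell cannot be told apart, here or in the results that follow.

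Adamts5, the main aggrecan-cutting enzyme of mouse cartilage, fell after YKL-05-099 and passed no test after PTH. It ran from 1.36 to 3.08 FPKM (median 2.54) in vehicle, from 1.44 to 3.85 (median 2.1) after PTH and from 1.19 to 2.63 (median 1.4) after YKL-05-099. The YKL-05-099 libraries sat mostly at the low end of the vehicle range, with 1 of 8 above the vehicle mean. Differences from vehicle were -0.09 ± 0.19 after PTH (adjusted p = 0.81) and -0.56 ± 0.19 after YKL-05-099 (adjusted p = 0.0474). That call was narrow: it was lost under 23 of the 35 other settings, 16 of them the omission of 1 library, with adjusted p-values of 0.0166 to 0.0939 as single libraries were left out. It was lost without any of the 7 vehicle libraries other than replicate 3, without 3 of the PTH libraries and without 6 of the YKL-05-099 libraries. Adamts15 and Adamts9, which cut versican, passed no test: their log2 differences were -0.39 (adjusted p = 0.0949) and 0.12 after PTH, and -0.07 and -0.22 after YKL-05-099.

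**Figure D2:**
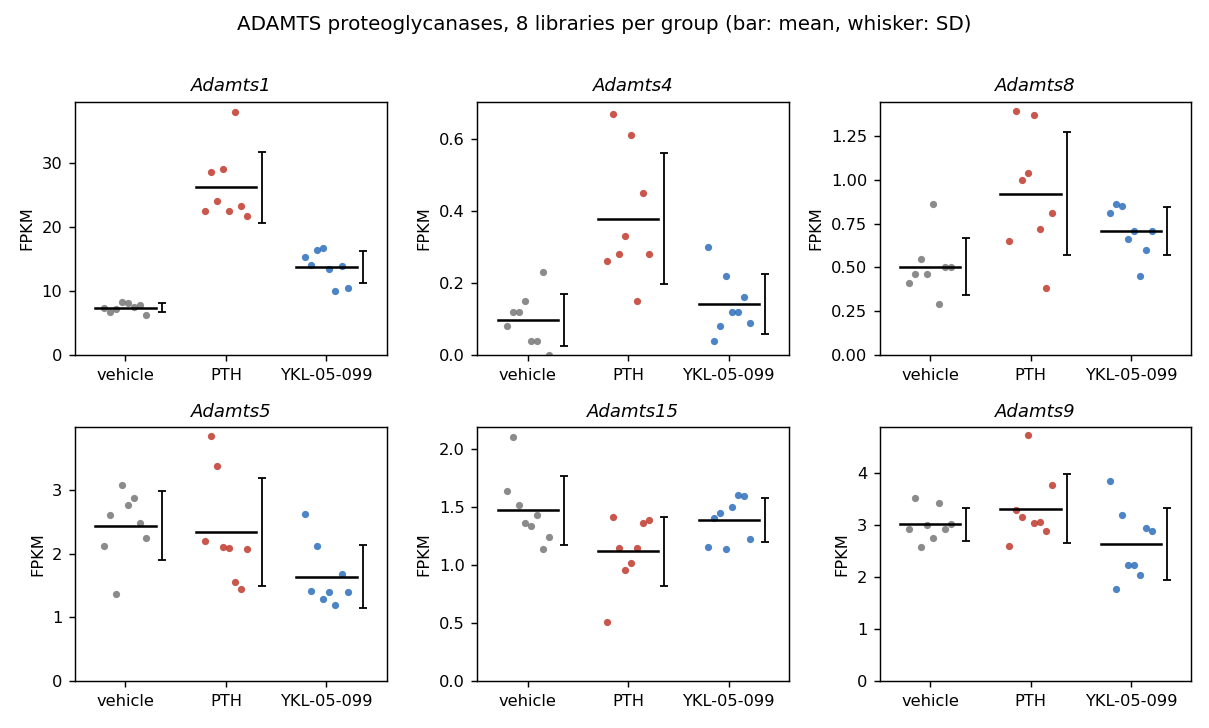
FPKM of the 6 proteoglycan-cutting ADAMTS genes by group, with the axes starting at 0. Points are the 8 libraries of a group, bars the mean and whiskers the SD. Adamts1 forms 3 separate bands (6.24 to 8.27, 9.99 to 16.78 and 21.77 to 38.07 FPKM), and the groups overlap for the other 5.

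Some markers of smooth muscle and mural cells moved with PTH beside these genes. Myh11 and Rgs5 did not, at log2 differences of -0.02 and 0.04, and Cnn1 was not called at 0.53 (adjusted p = 0.406, limma). Of 5 such markers, 2 rose after PTH (Acta2 and Tagln, log2 differences 0.47 and 0.44) and 0 after YKL-05-099 (0 also without adjustment, limma), and their summed level was 39.7 to 62.9 FPKM in vehicle, 44.8 to 85 after PTH and 39.9 to 62.2 after YKL-05-099. None of the 5 was at 0 in any library. Of 8 endothelial markers, 0 passed the test after PTH in limma, also at an unadjusted p below 0.05, and 1 fell after YKL-05-099 (Tek), where 4 were lower and 0 higher without adjustment (list median -0.34). The part of these cells in the ADAMTS results was not tested.

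Adamts6 fell after both agents. It encodes a secreted relative of Adamts10, and both are tied to fibrillin microfibrils (chr13:104286518-104496695). Vehicle libraries ran from 2.29 to 4.32 FPKM (median 3.3), PTH libraries from 0.66 to 3.15 (median 1.44) and YKL-05-099 libraries from 1.3 to 2.58 (median 1.99). Every treated library was below the vehicle mean, and the overlap after PTH came from replicate 8 at 3.15 FPKM, the other 7 lying at or under 1.81. The log2 difference was -1.11 ± 0.20 after PTH (adjusted p = 2.8e-04) and -0.71 ± 0.20 after YKL-05-099 (adjusted p = 0.0152), a fall to 0.462 and 0.613 of the vehicle level. Between the agents the difference was 0.41 ± 0.20 (95% interval 0.00 to 0.81, adjusted p = 0.247).

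The other ADAMTS genes passed no test in limma, 0 of 5 having even an unadjusted p below 0.05. Adamts10 averaged 4.66 FPKM in vehicle, 4.46 after PTH and 3.94 after YKL-05-099, while Adamts16 averaged 1.02 and Adamts7 0.426 FPKM in vehicle. Log2 differences of these 3 lay between -0.33 and -0.06 in the comparisons with vehicle. Adamts2 and Adamts14, which trim the ends of newly made procollagens, differed from vehicle by -0.02 and -0.23 after PTH and by -0.12 and -0.40 after YKL-05-099.

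Among the secreted MMPs, Mmp13 showed the largest fall of all 41 genes, and it did so after YKL-05-099. Mmp13 encodes collagenase-3, which cuts fibrillar collagens, and in rat bone cells it is a classic PTH-induced gene (chr9:7272514-7283333). Vehicle libraries ran from 0.68 to 1.51 FPKM (median 1.05), PTH libraries from 0.26 to 1.03 (median 0.615) and YKL-05-099 libraries from 0.06 to 0.49 (median 0.185). All 8 YKL-05-099 libraries were below all 8 vehicle libraries, and the PTH libraries overlapped both groups, each below the vehicle mean. YKL-05-099 differed from vehicle by -1.97 ± 0.26 (a 3.93-fold fall, adjusted p = 3.1e-05) and PTH by -0.74 ± 0.26 (adjusted p = 0.0571) on the log2 scale, and YKL-05-099 was lower than PTH by -1.23 ± 0.26 (95% interval -1.78 to -0.69, adjusted p = 0.00527).

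The transcript was scarce, so sizes are less firm than directions. About 11 to 28 fragments stood behind a vehicle value, 5 to 19 behind a PTH value and 1 to 8 behind a YKL-05-099 value. With 1 FPKM or 0.01 FPKM added before the logarithm, the YKL-05-099 difference was -0.77 or -2.47, past the threshold both times. The PTH difference passed the threshold under 8 of 35 settings, 6 of them the omission of 1 library (vehicle replicate 1 or 3, PTH replicate 2 or 3, YKL-05-099 replicate 6 or 8), with adjusted p-values from 0.0183 to 0.138 over all settings. The 95% interval of the PTH difference ran from -1.29 to -0.20.

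The promoter of Mmp13 is shown because collagenase genes are known for a proximal AP-1 element, the binding site of Fos and Jun proteins, with the letters TGANTCA. The element was found in 4 of the 23 matched genes (Adam19, Adam1b, Mmp12 and Mmp13), 14.8% of the 27 promoters against 7.81% of all promoters, both strands searched. Counts this small are no result about these families. Of these 4 genes only Mmp13 passed the test in any comparison, and the window of Mmp11, which fell after both agents, held no such element. The called genes without a matched promoter, named above, were not searched for this element either. In Mmp13 (plus strand, chr9:7272264-7272563) the element has its first base 35 bases before the start. It is in capitals below, and no TGACG was found in this window.
Mmp13 promoter: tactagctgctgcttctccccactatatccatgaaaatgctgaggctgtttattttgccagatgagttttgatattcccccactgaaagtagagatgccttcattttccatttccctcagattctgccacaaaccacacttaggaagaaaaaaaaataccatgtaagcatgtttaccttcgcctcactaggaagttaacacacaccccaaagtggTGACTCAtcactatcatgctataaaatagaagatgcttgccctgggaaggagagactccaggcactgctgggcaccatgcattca

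Mmp12, which encodes macrophage elastase, is the next MMP gene on the same chromosome, 61.1 kb away, and holds the element 44 bases before 1 of its RefSeq starts. The windows below give 10 bases on each side of it in both genes, with the element in capitals.
Mmp12 window: acatcaacagTGAGTCAgatagaggat
Mmp13 window: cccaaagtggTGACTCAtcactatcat
Mmp12 itself ran from 0.35 to 0.65 FPKM (median 0.475) in vehicle, from 0.23 to 0.84 (median 0.32) after PTH and from 0.08 to 0.54 (median 0.26) after YKL-05-099. With about 2 to 20 fragments behind a value it passed no test, at log2 differences of -0.28 ± 0.25 after PTH (adjusted p = 0.504) and -0.68 ± 0.25 after YKL-05-099 (adjusted p = 0.06). The latter passed under 6 of 34 settings, among them the omission of PTH replicate 2, YKL-05-099 replicate 1 or YKL-05-099 replicate 8 (adjusted p-values of 0.0431, 0.0402 and 0.0285). Of the other MMP genes of this stretch, Mmp3, Mmp8, Mmp20 and Mmp7 were under the minimum.

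Mmp11 fell after both agents. It encodes stromelysin-3, an MMP that furin activates inside the cell, and lies on chromosome 10 (chr10:75923221-75932502). Vehicle libraries ran from 2.22 to 5.03 FPKM (median 3.33), PTH libraries from 0.98 to 1.55 (median 1.17) and YKL-05-099 libraries from 0.94 to 2.61 (median 1.71). Every PTH library was below every vehicle library, and the YKL-05-099 libraries overlapped both groups. The log2 difference was -1.40 ± 0.17 after PTH (a 2.63-fold fall, adjusted p = 1.7e-06) and -0.97 ± 0.17 after YKL-05-099 (a 1.96-fold fall, adjusted p = 5.4e-04). Between the agents it was 0.42 ± 0.17, with a 95% interval of 0.07 to 0.77 and an adjusted p of 0.148, so they were not shown to differ. Both falls kept their call under each of the 35 other settings.

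Mmp19, another secreted MMP that cuts basement membrane proteins, fell less. It ran from 1.92 to 2.68 FPKM (median 2.34) in vehicle, from 1.02 to 2.45 (median 1.5) after PTH and from 1.39 to 1.97 (median 1.71) after YKL-05-099. Of the PTH libraries 1 was above the vehicle mean, and of the YKL-05-099 libraries 0 were, where the overlap of the latter was narrow, from 1.92 to 1.97 FPKM. Differences from vehicle were -0.52 ± 0.13 after PTH (adjusted p = 0.0092) and -0.41 ± 0.13 after YKL-05-099 (adjusted p = 0.0372). The YKL-05-099 call was lost under 12 of 35 settings, 9 of them the omission of 1 library (vehicle replicates 1, 2, 6, 7 or 8, or YKL-05-099 replicates 2, 5, 6 or 7, adjusted p up to 0.0725).

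Mmp2 and Mmp28 passed no test against vehicle. Mmp2, gelatinase A, ran from 0.37 to 0.99 FPKM (median 0.825) in vehicle, from 0.72 to 1.31 (median 1.01) after PTH and from 0.1 to 1.28 (median 0.49) after YKL-05-099. The agents lay on opposite sides of vehicle, at log2 differences of 0.42 ± 0.29 (adjusted p = 0.373) and -0.47 ± 0.29 (adjusted p = 0.281), and differed from each other by -0.89 ± 0.29 (95% interval -1.49 to -0.30, adjusted p = 0.0684). The value of YKL-05-099 replicate 1 was the highest of its group, and without it the difference between the agents was -1.06 with an adjusted p of 0.0176. Leaving out YKL-05-099 replicate 3 or 8 also took it past the threshold (adjusted p = 0.0435 and 0.0455). The difference stayed short of the threshold under 31 of 35 settings, with adjusted p-values up to 0.183 (limma). About 8 to 21 fragments stood behind a vehicle value, 14 to 29 behind a PTH value and 2 to 27 behind a YKL-05-099 value. Mmp28 averaged 0.724 FPKM in vehicle, 0.69 after PTH and 0.636 after YKL-05-099. Of the 6 secreted MMPs, 2 fell after PTH and 3 after YKL-05-099, where 10.2% and 10.5% of all genes fell, and counts this small are no result about the group. By limma 0 rose after either, also at an unadjusted p below 0.05.

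**Figure D3:**
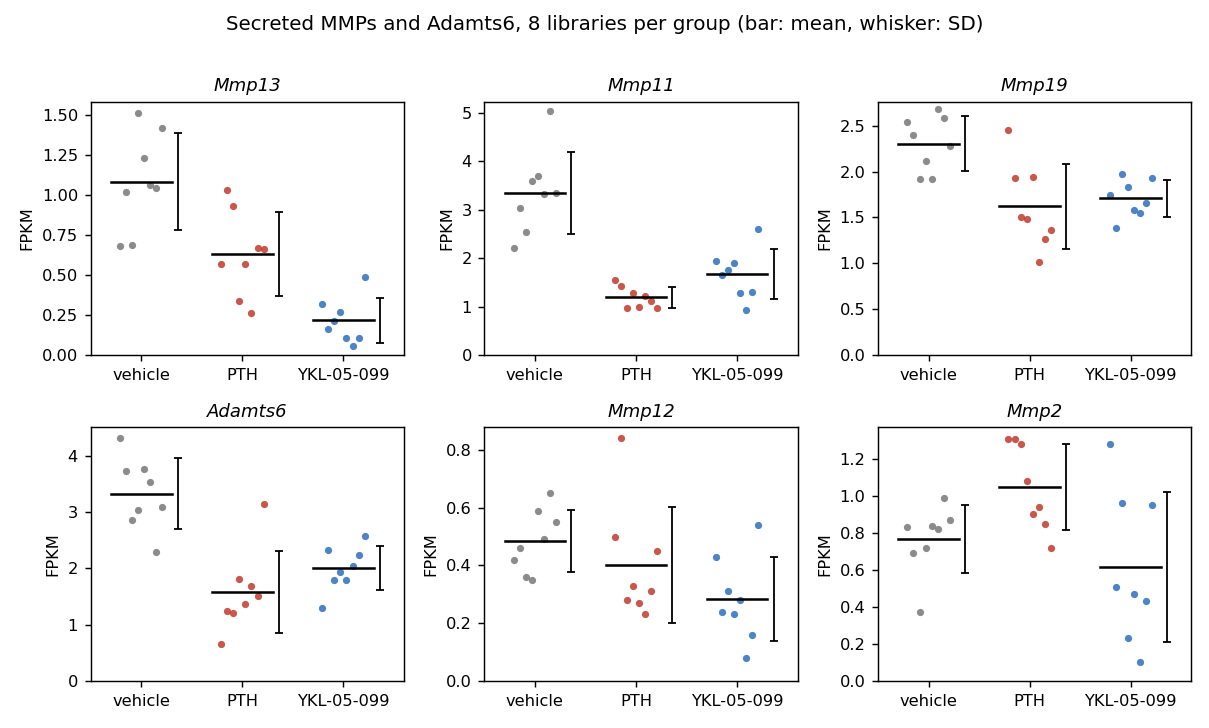
FPKM of 5 secreted MMPs and Adamts6 by group, with the axes starting at 0. Points are the 8 libraries of a group, bars the mean and whiskers the SD. All YKL-05-099 libraries of Mmp13 (0.06 to 0.49 FPKM) and all PTH libraries of Mmp11 (0.98 to 1.55 FPKM) lie below the vehicle libraries, and PTH replicate 8 of Adamts6 stands at 3.15 FPKM.

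Some markers of fibroblasts, leukocytes and tubule cells also fell after YKL-05-099, and other markers of tubule cells rose. Of 7 fibroblast markers 4 fell (Col1a2, Col3a1, Pdgfra and Pdgfrb, list median -0.50), with a summed level of 43.4 to 71.9 FPKM in vehicle, 40.9 to 60.5 after PTH and 23.8 to 67.4 after YKL-05-099. Of 6 markers of all leukocytes 4 fell (Cd52, Coro1a, Lcp1 and Ptprc, list median -0.63), with sums of 26.8 to 39.5, 24.9 to 53 and 15.5 to 27.2 FPKM. Of 7 macrophage markers, 1 rose after PTH (Csf1r) and 0 passed after YKL-05-099, where 2 had an unadjusted p below 0.05 in limma. After PTH, 0 of the fibroblast and 0 of the pan-leukocyte markers passed, with 2 and 0 at an unadjusted p below 0.05. Between the agents, 3 of the 6 leukocyte markers, 2 of the 7 macrophage markers (Csf1r and C1qc) and 0 of the fibroblast markers were lower with YKL-05-099, the last with 4 at an unadjusted p below 0.05. Of 4 markers of the distal convoluted tubule, 2 fell after PTH (Calb1 and Trpm6, list median -0.29) and 2 after YKL-05-099 (Pvalb and Trpm6, list median -0.32). Slc12a3 of the same list did not fall, at log2 differences of 0.03 and 0.14 (adjusted p = 0.831 and 0.215, limma). The sums of this list were 441 to 614 FPKM in vehicle, 402 to 503 after PTH and 423 to 618 after YKL-05-099. Of 4 intercalated cell markers, 0 fell after PTH, also without adjustment (limma), where Foxi1 stood at 0.34 (adjusted p = 0.0888). After YKL-05-099, 2 fell (Foxi1 at -0.67 and Atp6v1g3 at -0.44). The sums were 107 to 140, 107 to 137 and 84.2 to 110 FPKM. Other markers rose after YKL-05-099: 1 of 6 of the proximal tubule (Slc34a1 at 0.42, list median 0.15) and 1 of 4 of principal cells (Scnn1g at 0.25, list median 0.19). Of either list 0 fell after YKL-05-099 and 0 passed after PTH, also without adjustment (limma). None of these markers was at 0 in any library, and the part of these cells in the falls of Mmp11, Mmp19, Adamts6 and Adam11 after PTH and of Mmp13, Mmp11, Mmp19, Adamts5 and Adamts6 after YKL-05-099 was not tested.

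None of the membrane-bound MMPs passed the test. Mmp14, Mmp15, Mmp17, Mmp23 and Mmp24 differed from vehicle by at most 0.20 after PTH and 0.24 after YKL-05-099 on the log2 scale, and in limma 0 of the 5 had even an unadjusted p below 0.05 in any comparison. Their means ran from 0.355 (Mmp17) to 3.77 FPKM (Mmp24). Mmp14 is the main activator of Mmp2 at the cell surface, and averaged 2.93 FPKM in vehicle, 3.11 after PTH and 2.51 after YKL-05-099.

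The ADAM sheddases were the most abundant proteases, and none of them passed the test. Adam17, which releases TNF and EGF-receptor ligands, averaged 9.77 FPKM in vehicle, 9.7 after PTH and 9.36 after YKL-05-099. Its log2 differences were -0.02 (95% interval -0.18 to 0.14) and -0.06 (-0.23 to 0.10). Those of Adam10, which cuts Notch and cadherins, were 0.08 (-0.12 to 0.27) and 0.06 (-0.13 to 0.26). These intervals leave room only for small changes in either direction. Adam9, Adam15, Adam28, Adam12, Adam19, Adam8 and Adam33 passed no test either, and the smallest adjusted p among the 9 proteolytic ADAMs was 0.261 after PTH and 0.453 after YKL-05-099 (0 of 9 at an unadjusted p below 0.05). Adam11 and Adam22, which lack protease activity and serve as cell-surface receptors in the nervous system, split: Adam11 fell after PTH and Adam22 did not pass.

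Adam11 (chr11:102761413-102780263) ran from 1.16 to 2 FPKM (median 1.31) in vehicle, from 0.8 to 1.5 (median 0.895) after PTH and from 0.78 to 1.27 (median 1.05) after YKL-05-099. The ranges overlapped, with 1 of 8 PTH libraries and 0 of 8 YKL-05-099 libraries above the vehicle mean. It differed from vehicle by -0.43 ± 0.15 on the log2 scale after PTH (adjusted p = 0.0489) and -0.37 ± 0.15 after YKL-05-099 (adjusted p = 0.0864). The PTH call stood at the threshold and was lost under 26 of 35 settings, 19 of them the omission of 1 library, with adjusted p-values up to 0.112 (without vehicle replicate 2). The 4 ADAMs known from the testis (Adam1a, Adam1b, Adam4 and Adam32) passed no test. Adam1a and Adam1b are related neighbours 15.2 kb apart on chromosome 5, so how reads were divided between them is uncertain, and Adam32 lies 692 bases from the much more abundant Adam9.

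None of the TIMPs passed the test. Timp3 averaged 493 ± 21.8 FPKM in vehicle, 464 ± 65.2 after PTH and 503 ± 22 after YKL-05-099 (SD, n = 8 each), and its log2 differences were -0.10 (95% interval -0.24 to 0.04, adjusted p = 0.372) and 0.03 (-0.11 to 0.17, adjusted p = 0.827). Timp2, which helps Mmp14 to activate Mmp2, averaged 18.7, 19.1 and 17.7 FPKM. The 95% intervals of its log2 differences were -0.25 to 0.30 and -0.37 to 0.18. Timp1, the inducible member of the family, was low and variable, from 0 to 1.27 FPKM in vehicle, 0.16 to 0.83 after PTH and 0 to 0.65 after YKL-05-099, and was listed at 0 in 3 libraries. Its differences of 0.12 ± 0.48 and -0.70 ± 0.48 passed no test (adjusted p = 0.915 and 0.349), with 95% intervals of -0.88 to 1.12 and -1.70 to 0.29.

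**Figure D4:**
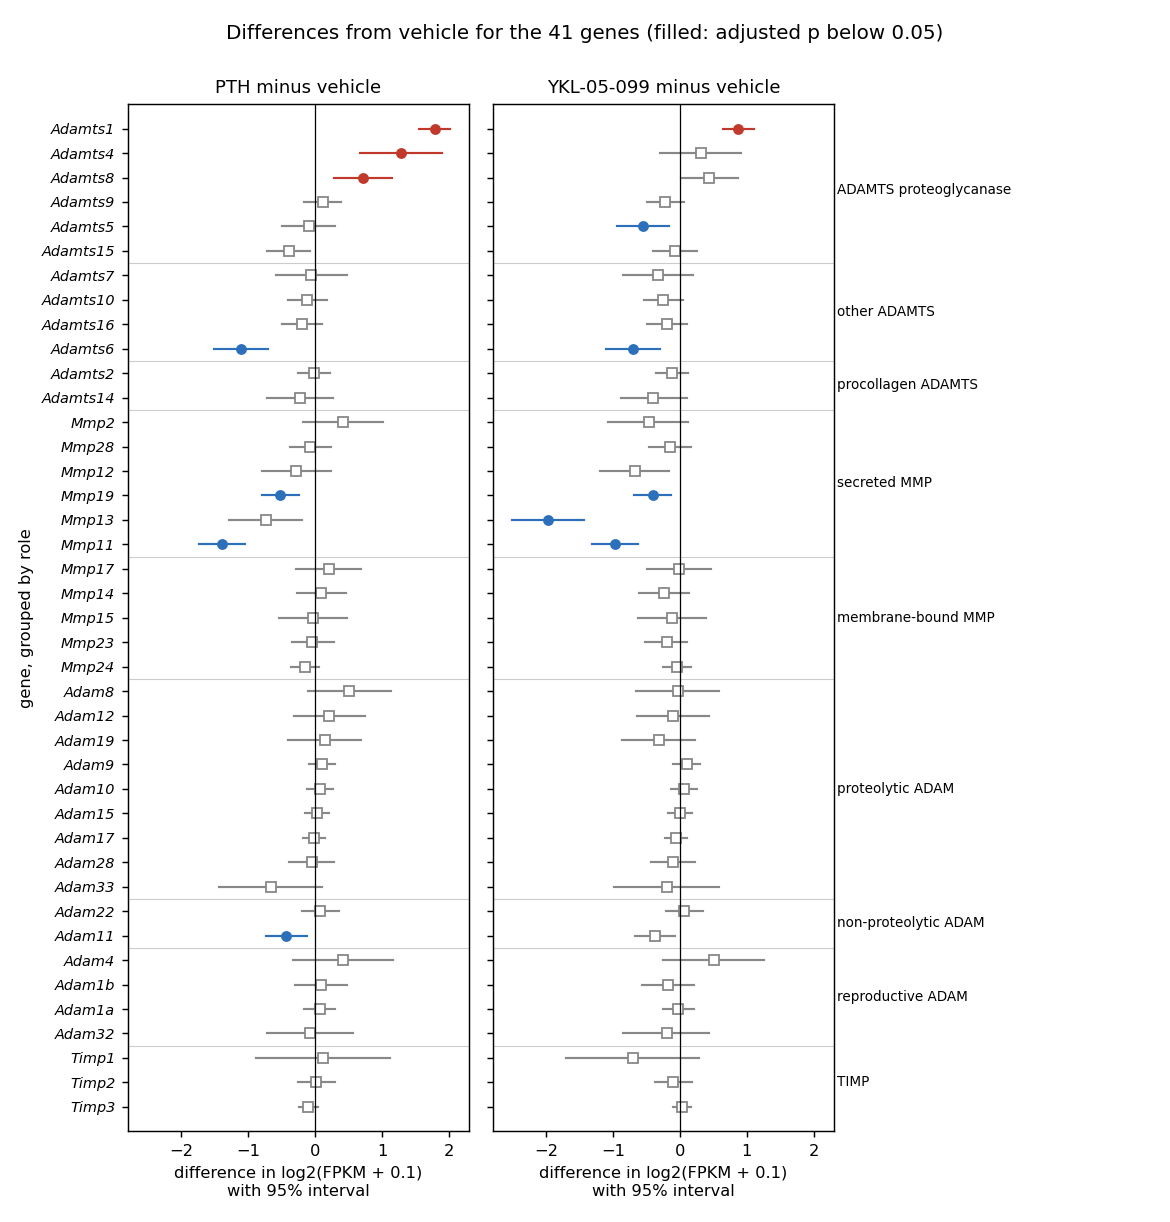
Differences from vehicle in log2(FPKM + 0.1) for the 41 genes, PTH on the left and YKL-05-099 on the right, grouped by role. Symbols are limma estimates with 95% intervals, filled and coloured where the adjusted p over all genes is below 0.05 (7 genes after PTH, 6 after YKL-05-099). Adamts1 is far to the right on both sides (1.79 and 0.87), Mmp11 and Adamts6 to the left on both, and Mmp13 far to the left after YKL-05-099 (-1.97).

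Some members are neighbours on a chromosome. Adamts1 and Adamts5 lie 55 kb apart on chromosome 16, and after YKL-05-099 the former rose (0.87) and the latter fell (-0.56). The call of Adamts5 was narrow and was lost under 23 of the 35 other settings. Adamts15 and Adamts8 lie 20.1 kb apart on chromosome 9, and after PTH Adamts8 rose by 0.71 while Adamts15 stood at -0.39 without passing the test. Mmp13 and Mmp12 both had negative differences after YKL-05-099, of which that of Mmp13 passed.

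Genes that work with these proteases were taken as fixed lists. Of 11 tested regulators of sheddases, 2 rose after PTH (Rhbdf2 and Frmd8) and 3 after YKL-05-099, and 0 fell (1 and 0 at an unadjusted p below 0.05, limma), where 5.49% and 5.66% of all genes rose. The list medians were 0.04 and 0.13, where that of all genes was -0.05. Between the agents 1 was called, Rhbdf1 (iRhom1), higher with YKL-05-099 by 0.36 ± 0.08 (adjusted p = 0.00453). Rhbdf2 (iRhom2, which brings ADAM17 to the cell surface) rose after both, at 0.37 ± 0.12 (adjusted p = 0.0376) and 0.58 ± 0.12 (adjusted p = 0.00263), from a vehicle mean of 2.08 FPKM. Furin, which removes the inhibitory propeptide of ADAMs, ADAMTSs and Mmp11, rose after YKL-05-099 by 0.38 ± 0.08 (adjusted p = 0.00308), from 45.6 to 59.3 FPKM. The tetraspanin gene Tspan14, whose product escorts ADAM10, rose by 0.36 ± 0.07 after the same agent (adjusted p = 0.00216). ADAM10 and ADAM17 transcripts themselves passed no test, as given above.

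Of 6 ADAMTS-like genes, which encode relatives without a protease domain, Adamtsl2 rose after PTH by 0.42 ± 0.13 (adjusted p = 0.0316), and 0 passed after YKL-05-099, also without adjustment. Of 5 other metzincins (the wider family, including the meprins of the brush border) and 6 other inhibitors, 0 passed in any comparison by limma, with 0 metzincins and 0 to 2 inhibitors at an unadjusted p below 0.05.

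Of 17 matrix proteins that these enzymes can cut, 1 rose and 1 fell after PTH and 3 fell after YKL-05-099, where 10.2% and 10.5% of all genes fell. After PTH, Lamb1 fell by 0.37 on the log2 scale (adjusted p = 0.0116) and Col4a1 rose by 0.37 ± 0.11 (adjusted p = 0.0273). After YKL-05-099, Nid1 (-0.64 ± 0.17, adjusted p = 0.0106), Col3a1 (-0.71 ± 0.22, adjusted p = 0.0285) and Col1a2 (-0.50 ± 0.16, adjusted p = 0.0334) fell. Without adjustment, 8 of the 17 were lower and 0 higher after YKL-05-099 at a p below 0.05, where 30% of all genes passed that level in either direction. The list median was -0.25, and that of all genes -0.05. Between the agents, Col4a1, Col4a2 and Nid1 were lower with YKL-05-099 (-0.54, -0.39 and -0.70, adjusted p = 0.00473, 0.0159 and 0.0115), 9 were lower without adjustment, and the list median was -0.39 against 0.00 for all genes. Col1a2 and Col3a1 are also among the fibroblast markers above. RNA levels say nothing of the amount or activity of the proteases, which are made as inactive precursors.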

How the data were processed

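RNA extracted from whole kidneys was sequenced as DNA nanoballs (BGISEQ500), per the labels. The deposited table holds FPKM values rounded by the authors to 2 decimals. As tools, the submitters' notes list DESeq2, RSEM 1.3.0 and STAR 2.7.2b, and as builds mm10 and GRCm38, with no role for each, and the strand setting is not given in the sources used here, so overlapping genes cannot be told apart. FPKM depends on the other genes of a library, and 1 further value column, equal to PTH replicate 3, was not used. The table holds no counts, so no count model was fitted. Depth was estimated from low values of genes of 700 to 1200 bases (78.2% to 86.1% within 0.2 of a whole fragment).

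Libraries were grouped by labelled treatment. Values entered limma (R 4.3.3, limma 3.58.1) as log2(FPKM + 0.1), a scale that understates differences of low genes, over genes of at least 0.2 FPKM and with a mean-variance trend. The fit was tested on simulated data. Alternatives covered the added constant, minimum, scaling, library weights, replicate number, groups fitted, variance trend and libraries left out. Members, lists and tests were chosen with earlier results of these data known. Any gene of the 41 could be named, with values by library for those called in a comparison and for Adamts1 and Mmp13. Mmp12 and Mmp2 were added after their values were seen. Of each further list, up to 3 called genes were named by rule, and others after their values were seen. The list genes Tll2, Acan, Adgre1 and Ly6g were not matched. Promoters and coordinates are from RefSeq (GRCm38), and other steps used numpy 2.4.6, pandas 2.3.3 and matplotlib 3.10.9 in Python 3.11.15. Protein sequences were not analysed here, and 1 further pathway list is not reported here.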

Additional observations from a re-analysis of the deposited data

Results flagged for a closer look

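In 8 of 123 gene and group combinations, 1 library lay apart from the other 7 by Dixon's test at its 95% level, where chance gives about 1 in 20. PTH replicate 4 was low for Timp3 (334.03 FPKM, the others 439.42 to 553.48) and for Adam17 (7.07 FPKM, the others 9.16 to 11.41). Vehicle replicate 3 was low for Adamts5 (1.36 FPKM, the others 2.12 to 3.08) and for Mmp2 (0.37 FPKM, the others 0.69 to 0.99), and without it the fall of Adamts5 after YKL-05-099 was -0.67 on the log2 scale. Vehicle replicate 8 was low for Mmp14 (1.63 FPKM, the others 2.53 to 3.68). PTH replicate 5 was low for Mmp23 (1.57 FPKM, the others 2.49 to 3.61), and PTH replicate 1 for Adamts15 (0.51 FPKM, the others 0.96 to 1.42). The single high library was YKL-05-099 replicate 8 for Mmp24 (4.76 FPKM, the others 3.45 to 3.88).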

How the results depend on the processing

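Of the 15 calls among the 41 genes, 11 held under all 35 alternatives (34 for Adamts4, which is under a minimum of 0.5 FPKM and whose call is no support, as it passed 0.2 FPKM only through the PTH group), 4 were lost under some, and 0 changed sign. The 4 were those of Adam11 and Adamts8 after PTH and of Adamts5 and Mmp19 after YKL-05-099, and the cause was not tested. Of 11 further differences at an unadjusted p below 0.05, 6 passed under some alternative: Mmp13 after PTH, Mmp12 and Adam11 after YKL-05-099, and Adamts4, Adamts9 and Mmp2 between the agents. Calls between the agents numbered 4 under quantile normalization. As single libraries were left out, the calls ran from 6 to 8 after PTH, from 4 to 7 after YKL-05-099 and from 2 to 5 between the agents, the last without YKL-05-099 replicate 1 (Adamts9 then at an adjusted p of 0.0427 and Adamts4 at 0.0259). Same-numbered libraries did not deviate together (correlations of -0.153 to 0.076, -0.058 to 0.156 and -0.155 to 0.0502), and with a replicate block 6, 4 and 2 of the 41 were called. Over all genes, calls after YKL-05-099 were 3799 with library weights against 2471, and calls between the agents 500 in a fit over 2 groups and 567 without the 4 libraries of highest urothelium score, against 883. Depth limits Mmp13, Mmp12, Mmp2, Adamts4, Adamts8 and Timp1. It also limits Adam4, Adam8 and Adam32, with medians of about 2, 5 and 5 fragments behind a vehicle value.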
